A study of Homo sapiens with 9 samples.

Results

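The ion channel genes described here were taken by symbol: the pore-forming and auxiliary subunits of voltage-gated sodium channels (SCN followed by a digit), voltage-gated calcium channels (CACNA, CACNB and CACNG) and potassium channels (KCNA, KCNB, KCNC, KCND, KCNH, KCNJ, KCNK, KCNMA, KCNMB, KCNN and KCNQ). After 10 antisense symbols were dropped, 102 of the 19775 genes on the array belonged to them. These were 12 sodium channel genes, 25 calcium channel genes and 65 potassium channel genes, the last including the noncoding KCNQ1OT1 and KCNQ1DN. The 102 genes are covered by 223 probe sets (short groups of probes that read 1 transcript region), and each gene is given by the probe set that was brightest on average over all arrays. Some genes of these families are not analysed here.

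The arrays measured RNA from H69, an established human small cell lung cancer line. Control cells received the solvent DMSO for 24 h (the treatment field of these samples reads none), and the other cells received PIK75 at 100 nM or TGX221 at a labelled 1 mM, a unit that could not be checked. Both compounds inhibit phosphoinositide 3-kinases, lipid kinases that relay growth factor signals: PIK75 is used against the alpha catalytic isoform and TGX221 against the beta isoform. Each group holds 3 arrays. The labels number the arrays but do not say whether they came from separate cultures, so p-values measure the spread between these arrays, which may be technical, and their number limits the precision.

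Voltage-gated channels open when the membrane potential changes: sodium channels carry the upstroke of action potentials, calcium channels let in the calcium that triggers secretion, and potassium channels bring the potential back. Inward rectifiers (KCNJ) and 2-pore channels (KCNK), which share the potassium pore but have no such voltage sensor, help set the resting potential. Neuroendocrine cells, among them small cell lung cancer cells, are electrically excitable and release hormones and peptides by calcium-triggered exocytosis.

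Values are log2 signals after RMA, so a difference of 1 is a 2-fold change. Differences were tested with limma over all 19775 genes, and a gene was called higher or lower at a Benjamini-Hochberg adjusted p below 0.05. Median gene values were 8.20 to 8.23 on all arrays, and control arrays correlated at 0.9724 to 0.9786 with PIK75 arrays and at 0.9956 to 0.998 with TGX221 arrays across genes. The neuroendocrine transcription factor gene INSM1 had a control mean of 13.05 ± 0.04 (SD, n = 3). The actin 3' minus 5' difference, a measure of RNA integrity, was 0.24 to 0.44 in controls, 0.26 to 0.41 with TGX221 and 0.47, 0.54 and 1.13 with PIK75, the last on replicate 5. Without that array the PIK75 comparison called 37 channel genes higher and 18 lower, against 30% and 23.8% of all genes.

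Promoters are shown for the 3 genes whose brightest probe sets fell most with PIK75. A promoter is also shown for KCNK3, which was not called by its brightest probe set and comes up below for its others. The printed sequences are the 250 bases before the transcript start in RefSeq (GRCh38.p14), written 5' to 3' on the gene's strand. Capitals mark GGGCGG, the GC box, or its reverse complement in SCN9A, CACNA2D1 and CACNA1E, and in KCNK3 the reverse complement of TTCAGCACC, the left part of the element bound by REST, a repressor of neuronal genes. SCN9A lies at chr2:166375945-166376194 (minus strand), CACNA2D1 at chr7:82443957-82444206 (minus), CACNA1E at chr1:181483267-181483516 (plus) and KCNK3 at chr2:26692472-26692721 (plus).
SCN9A promoter: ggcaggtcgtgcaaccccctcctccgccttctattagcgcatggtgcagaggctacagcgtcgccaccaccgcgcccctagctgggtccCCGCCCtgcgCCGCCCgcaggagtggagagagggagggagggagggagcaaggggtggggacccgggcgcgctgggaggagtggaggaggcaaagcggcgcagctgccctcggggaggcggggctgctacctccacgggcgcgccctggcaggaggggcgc
CACNA2D1 promoter: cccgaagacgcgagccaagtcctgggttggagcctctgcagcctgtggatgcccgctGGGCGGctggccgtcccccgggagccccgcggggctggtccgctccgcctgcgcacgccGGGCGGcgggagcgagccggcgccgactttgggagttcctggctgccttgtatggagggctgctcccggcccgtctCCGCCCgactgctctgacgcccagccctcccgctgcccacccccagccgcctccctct
CACNA1E promoter: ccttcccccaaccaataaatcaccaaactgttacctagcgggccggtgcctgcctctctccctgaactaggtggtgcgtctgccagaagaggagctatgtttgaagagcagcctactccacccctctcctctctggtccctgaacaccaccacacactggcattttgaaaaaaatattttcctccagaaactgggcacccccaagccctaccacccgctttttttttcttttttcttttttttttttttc
KCNK3 promoter: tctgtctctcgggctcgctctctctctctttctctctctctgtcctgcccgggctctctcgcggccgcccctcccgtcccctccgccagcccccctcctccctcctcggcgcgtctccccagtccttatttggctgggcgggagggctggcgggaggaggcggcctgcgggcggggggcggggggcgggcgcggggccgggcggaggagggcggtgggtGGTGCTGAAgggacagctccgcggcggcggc

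SCN9A holds 2 GC boxes in this window, CACNA2D1 holds 3 and CACNA1E holds none. The KCNK3 window holds the GC box as well, left in lower case above. Windows were available for 76 of the 102 members and for 15384 genes of the array, and both strands were searched. The GC box was found in 78.6% of the 14 members with a window that were lower with PIK75, in 75.8% of the 33 that were higher, in 68.4% of all 76 members and in 62.3% of all genes. TTCAGCACC was found in 3 of the 76 members (3.95%; CACNG3, KCNH6 and KCNK3) and in 50 of all genes (0.325%), and in none of the 14 lower members. A match describes letters in a window and is not a binding site.

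With PIK75, of the 102 channel genes, 18 fell (17.6%, against 25.2% of all genes) and 46 were called higher (45.1%, against 35.2%). In the deposited scaling the brightest probe sets rose by at most 0.45 on the log2 scale. By a minimum of 1.5-fold, 8 channel genes fell (7.84%, against 10.4% of all genes) and none rose (against 1.48%). The 3 values did not overlap between the groups for 65 members (63.7%, against 64.7% of all genes). On the hybridization spikes none of the 46 was called higher. The median difference was 0.13 for channel genes and 0.09 for all genes.

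**Figure D1:**
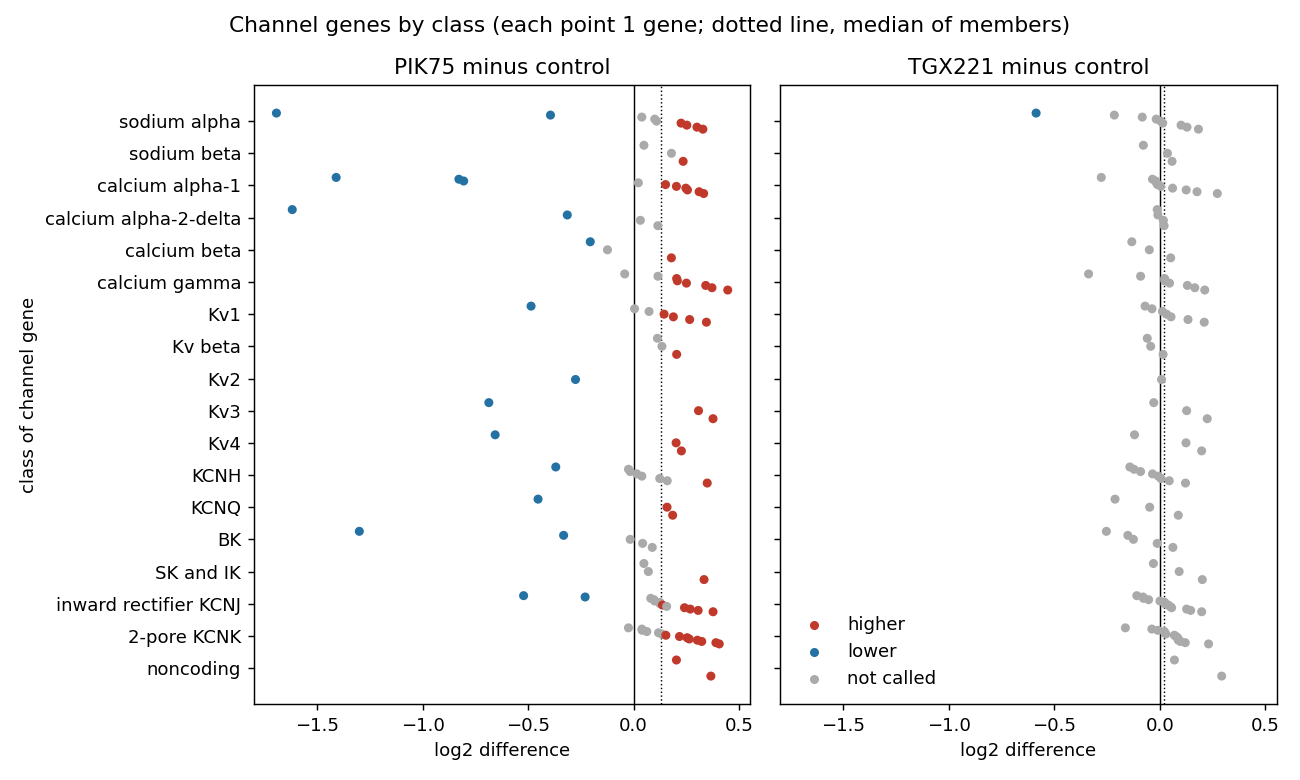
Log2 difference of each channel gene from control, by class, with PIK75 (left) and TGX221 (right); each point is 1 gene given by its brightest probe set, red was called higher, blue lower and grey not called (limma, 3 arrays a group), and the dotted line is the members' median. With PIK75 the points reach from -1.69 to 0.45; with TGX221 SCN9A alone was called; the red points lose their calls when the arrays are centred on the hybridization spikes.

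Among sodium channel pores, SCN9A, which encodes a channel of sensory and sympathetic neurons and of neuroendocrine cells, fell most by the brightest probe sets, while the other probe set of SCN3A fell by 2.04. Its log2 value was 8.44, 8.69 and 8.83 on the control arrays, 7.13, 6.91 and 6.84 with PIK75 and 8.02, 8.28 and 7.90 with TGX221. Every PIK75 array lay below every TGX221 array, and those lay below every control array. The PIK75 difference was -1.69 (SE 0.11, adjusted p = 9.57e-08, 3.23-fold lower), and the second probe set of the gene was called lower as well. SCN1A, a pore subunit of central neurons, fell by 0.39 (SE 0.08), from 8.62, 8.59 and 8.67 in controls to 8.28, 8.32 and 8.10, while its second probe set rose by 0.25. In all, 5 of the 12 sodium channel genes were called higher and 2 lower, against 35.2% and 25.2% of all genes. SCN8A, the pore of mature neurons, was called higher at 0.23; the call was lost in 9 of 21 alternatives, among them leaving out control replicate 5 (0.18) or PIK75 replicate 5 (0.15), and the value was -0.13 on the hybridization spikes. SCN2A at 0.04 and the auxiliary subunit SCN3B at 0.05 did not pass.

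The calcium channel genes held 4 of the 8 largest falls. CACNA2D1 encodes the alpha-2-delta subunit that carries calcium channels to the surface and binds gabapentin. Its values were 11.61, 11.53 and 11.70 in controls, 9.93, 9.98 and 10.08 with PIK75 and 11.55, 11.68 and 11.67 with TGX221. The PIK75 arrays lay apart from both other groups, which overlapped, and the difference from control was -1.62 (SE 0.06, adjusted p = 2.53e-09, 3.07-fold lower). CACNA2D2, a second subunit of this kind, fell by 0.31 (SE 0.06), and CACNA2D3 and CACNA2D4, at 0.03 and 0.12, did not pass.

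CACNA1E encodes the R-type calcium channel pore. It read 9.09, 9.24 and 9.34 in controls, 7.75, 7.87 and 7.83 with PIK75 and 8.82, 8.99 and 9.03 with TGX221. The 3 groups did not overlap: the PIK75 difference was -1.41 (SE 0.07, adjusted p = 1.51e-08, 2.66-fold lower), and the TGX221 difference of -0.28 did not pass (adjusted p = 0.0886). CACNA1B, the N-type pore of presynaptic terminals, read 8.71, 8.80 and 8.72 in controls, 7.85, 7.93 and 7.97 with PIK75 and 8.64, 8.85 and 8.70 with TGX221. It fell by 0.83 (SE 0.06, adjusted p = 3.15e-07). CACNA1A, the P/Q-type pore, which also serves transmitter release, read 11.47, 11.43 and 11.62 in controls, 10.58, 10.70 and 10.82 with PIK75 and 11.61, 11.65 and 11.78 with TGX221. It fell by 0.81 (SE 0.08, adjusted p = 2.01e-06). For both genes the PIK75 arrays were below all others, and the control and TGX221 arrays overlapped.

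The remaining calcium channel pores did not fall. The L-type genes CACNA1C and CACNA1D were called higher at 0.26 and 0.33, the T-type CACNA1G at 0.15, and CACNA1H, also T-type, at 0.02, did not pass. The calls held in 16 of 21 alternatives for CACNA1C, in 14 of 22 for CACNA1D and in 8 of 22 for CACNA1G. CACNA1D lost its call without PIK75 replicate 5, and CACNA1G lost its call without control replicate 5. The second probe set of CACNA1H read 8.98, 8.72 and 8.83 in controls and 9.15, 9.25 and 9.33 with PIK75. With the mean of its probe sets CACNA1H was called higher (0.21). In the deposited scaling 6 of the 10 pore genes were called higher and 3 lower, against 35.2% and 25.2% of all genes. With the arrays centred on the poly-A spikes 1 was higher and 3 lower (all genes 12.5% and 25.8%), and on the hybridization spikes 0 and 5 (all genes 1.95% and 66.3%). Of the cytoplasmic beta subunits, which bind the pore and aid its delivery to the membrane, CACNB3 fell by 0.21 and CACNB1 was called higher at 0.18, a sign that turned to -0.17 on the hybridization spikes. The gamma subunits, several of which serve AMPA receptors instead of calcium channels, were called higher in 6 of 8 cases in the deposited scaling, in 3 on the poly-A spikes and in none on the hybridization spikes, where 2 were lower. The shares of all genes are those given for the pores. CACNG1, the skeletal muscle subunit, rose from 7.96, 7.97 and 7.98 to 8.51, 8.37 and 8.37 (0.45, SE 0.06, adjusted p = 3.57e-05), with TGX221 arrays at 8.20, 8.06 and 8.14.

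**Figure D2:**
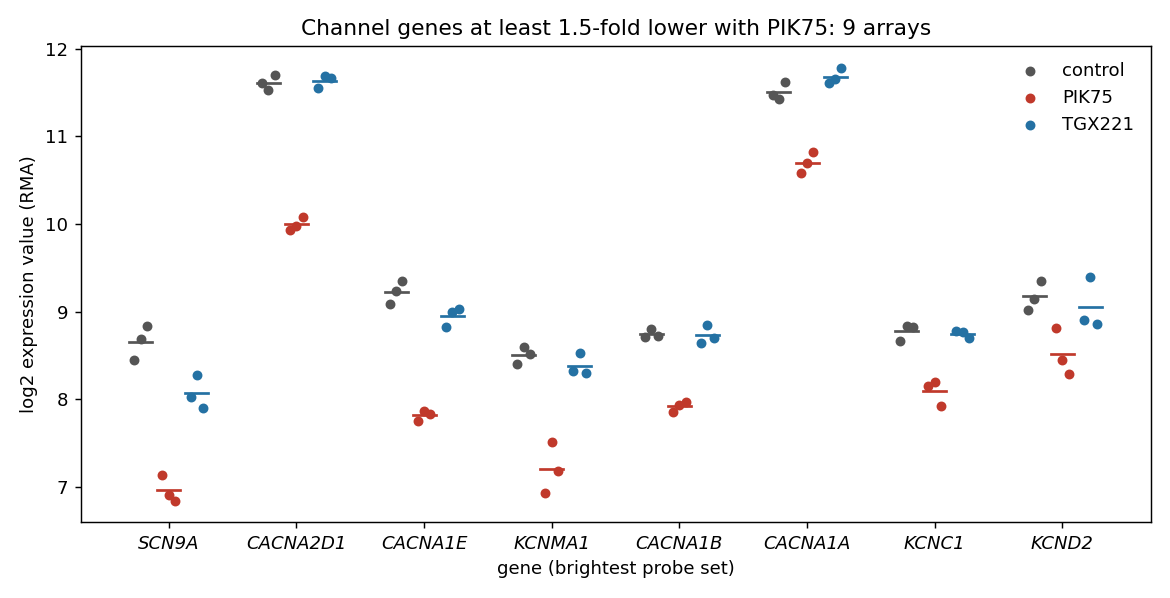
Log2 values of the 8 channel genes at least 1.5-fold lower with PIK75 on each of the 9 arrays; points are arrays, short lines are group means, and grey, red and blue are control, PIK75 and TGX221. The PIK75 points lie below all control points for every gene shown, and for SCN9A and CACNA1E the TGX221 points also lie below the controls; levels are not compared between genes.

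Among potassium channels, the pore gene of the large-conductance, calcium-activated channel changed most by the brightest probe sets. A second probe set of KCNK3, given below, fell further. The pore gene, KCNMA1, read 8.40, 8.60 and 8.52 in controls, 6.93, 7.52 and 7.18 with PIK75 and 8.32, 8.53 and 8.30 with TGX221. The PIK75 arrays spread more than the others (SD 0.29 against 0.10 in controls) and still lay below all of them. The difference was -1.30 (SE 0.12, adjusted p = 1.71e-06, 2.46-fold lower). KCNMB4, the neuronal beta subunit of this channel, fell by 0.33 (SE 0.07). KCNMB2, a beta subunit that inactivates the channel, differed by 0.04 and did not pass.

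KCNC1, a fast delayed rectifier of rapidly firing neurons, read 8.67, 8.84 and 8.83 in controls, 8.15, 8.20 and 7.92 with PIK75 and 8.77, 8.77 and 8.70 with TGX221. It fell by 0.69 (SE 0.08, adjusted p = 7.92e-06), while the related KCNC2 was called higher at 0.38 (SE 0.08). KCND2, which carries the transient A-type current, read 9.02, 9.14 and 9.35 in controls, 8.81, 8.45 and 8.29 with PIK75 and 8.91, 9.40 and 8.86 with TGX221. The PIK75 arrays lay below the others, with a spread that gives the fall of 0.66 an SE of 0.15 (adjusted p = 0.00269).

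Smaller falls passed in other potassium families. KCNA1, an axonal delayed rectifier, fell by 0.49 (SE 0.09), KCNQ3, a subunit of the M-current that damps repetitive firing, by 0.45 (SE 0.09), and KCNJ6, a G protein-gated inward rectifier, by 0.52 (SE 0.06). KCNH8 fell by 0.37, KCNB2 by 0.28 and KCNJ4 by 0.23. The call of KCNJ4 was lost without control replicate 1 (-0.18) or 3 (-0.19; adjusted p = 0.0558 for each), and its difference was 0.09 with the mean of its probe sets. KCNH2, the hERG channel gene, differed by -0.02 and KCNJ11, the pore of the ATP-sensitive channel of endocrine cells, by 0.10, and neither passed. The second probe set of KCNH2 read 9.58, 9.58 and 9.74 in controls and 9.34, 9.44 and 9.43 with PIK75. With the mean of its probe sets KCNH2 was called lower. The 2-pore genes had 8 of 14 called higher and none lower in the deposited scaling, 3 and none on the poly-A spikes, and none and 7 on the hybridization spikes. Of all genes 35.2% and 25.2%, 12.5% and 25.8%, and 1.95% and 66.3% were, in that order. KCNK4, a mechanically gated 2-pore channel, read 9.08, 8.74 and 8.79 in controls and 9.24, 9.33 and 9.25 with PIK75 (0.41, SE 0.09). KCNK9, an acid-sensitive one, read 6.94, 6.85 and 6.99 against 7.17, 7.28 and 7.50 (0.39, SE 0.08). The second probe set of KCNK9 rose more, from 6.56, 6.77 and 6.60 in controls to 7.33, 7.25 and 7.45 with PIK75.

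Olfactory receptor genes, known from sensory neurons of the nose, give a reference for dim signals beside the small rises. Of 82 olfactory receptor genes on the array, 56.1% were called higher with PIK75 and 2.44% lower, with a median difference of 0.17 against 0.13 for the channel genes. Their levels had a median of 6.64 and a 90th percentile of 8.03, and 75.6% of them had a mean of at least 6, so a signal of 6 does not show that a gene is expressed. At or below that 90th percentile lay 62 channel genes, of which 29 were called higher (46.8%, against 39.1% of all genes there) and 4 lower (6.45%, against 8.11%). Above it lay 40, of which 17 were higher (42.5%, against 31.9%) and 14 lower (35%, against 39.7%). The part of this background in the channel genes' rises was not tested. With the arrays centred on the poly-A spikes 14 members were higher and 18 lower, against 12.5% and 25.8% of all genes. On the hybridization spikes 0 and 60 were, against 1.95% and 66.3%, with the median of all genes at -0.26.

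**Figure D3:**
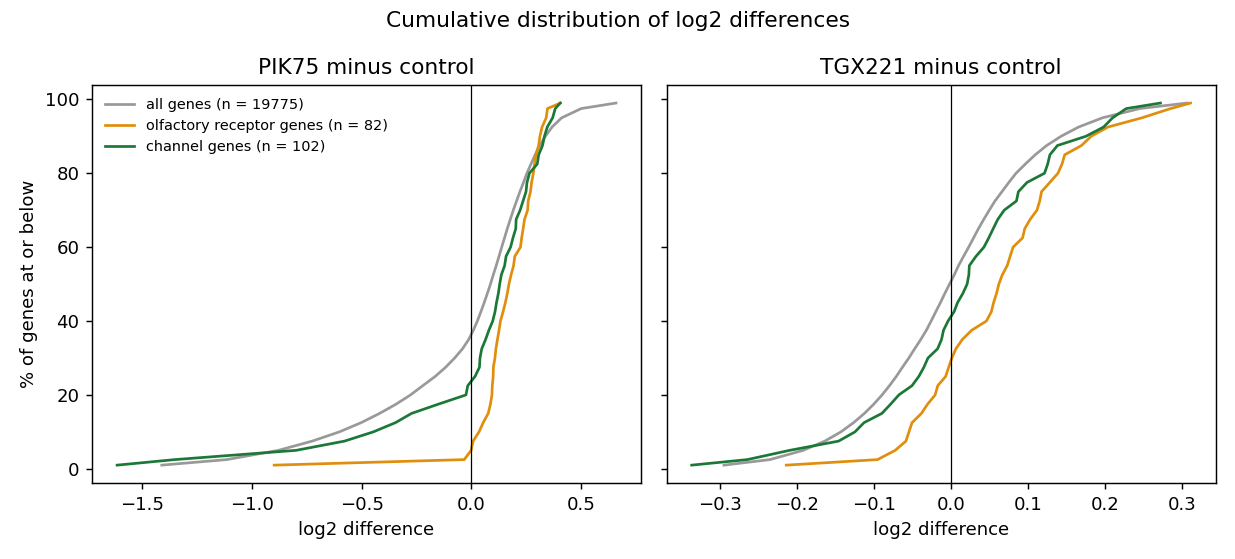
Share of genes (vertical axis, %) with a log2 difference from control at or below the value on the horizontal axis, for PIK75 (left) and TGX221 (right, on a narrower scale), in all 19775 genes (grey), 82 olfactory receptor genes (orange) and the 102 channel genes (green). With PIK75 the upper part of the channel curve lies close to the olfactory curve and to that of all genes. At 90% of genes the differences are 0.33 for channel genes, 0.31 for olfactory receptor genes and 0.34 for all genes. A left tail of channel genes reaches below -1, as in all genes. In the deposited scaling the medians are 0.13, 0.17 and 0.09, in the same order. Those of the channel genes and of all genes turn negative on the hybridization spikes.

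Several genes have probe sets that moved apart. In a test of every probe set, 82 of the 223 were called higher with PIK75 (36.8%, against 30.2% of all probe sets) and 37 lower (16.6%, against 23.5%). Of the 64 members with several probe sets, 9 had calls in both directions (14.1%, against 14.3% of all such genes). SCN3A, a pore of the developing nervous system, was called higher by its brightest probe set (0.30), which read 7.37, 7.33 and 7.60 in controls and 7.60, 7.79 and 7.81 with PIK75. Its other probe set read 7.75, 8.04 and 7.72 in controls, 5.85, 5.88 and 5.68 with PIK75 and 7.79, 7.84 and 7.64 with TGX221. That difference of -2.04 (SE 0.09) is larger than any seen in the brightest probe sets. Which of the 2 represents the gene depends on the averaging: over the control arrays alone the falling probe set is the brighter one.

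KCNK3, an acid-sensitive 2-pore channel, differed by 0.06 in its brightest probe set and did not pass. Its second probe set read 8.30, 8.57 and 8.48 in controls, 6.91, 6.89 and 6.94 with PIK75 and 8.08, 8.15 and 8.07 with TGX221, a difference of -1.54 (SE 0.07), and its remaining probe set fell by 0.21. KCNMB2 fell by 0.67 in its second probe set, and KCNK1 gave -0.52 in one and 0.26 in another. Of the falls named above, CACNA2D1 had a second probe set at 0.22, CACNA1B one at 0.28 and CACNA1A one at 0.38 beside 4 that fell by 0.43 to 0.88. CACNA1E had 2 others that fell by 0.23 and 0.45 and one at 0.21, and among the smaller falls KCNQ3 had one at 0.25 and KCNJ4 one at 0.41. These sets with a positive difference were all called higher in the deposited scaling. With the mean of the probe sets of each gene the differences from control were nearer to 0: -0.70 for CACNA2D1, -0.65 for KCNMA1, -0.44 for CACNA1A, -0.34 for KCNC1, -0.29 for CACNA1E and -0.27 for CACNA1B, all still called. SCN1A at -0.07 and KCNQ3 at -0.03 then lost their calls (adjusted p = 0.372 and 0.625). KCNJ6, by contrast, fell in both probe sets (0.52 and 0.87) and KCNMA1 in 3 of 4.

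**Figure D4:**
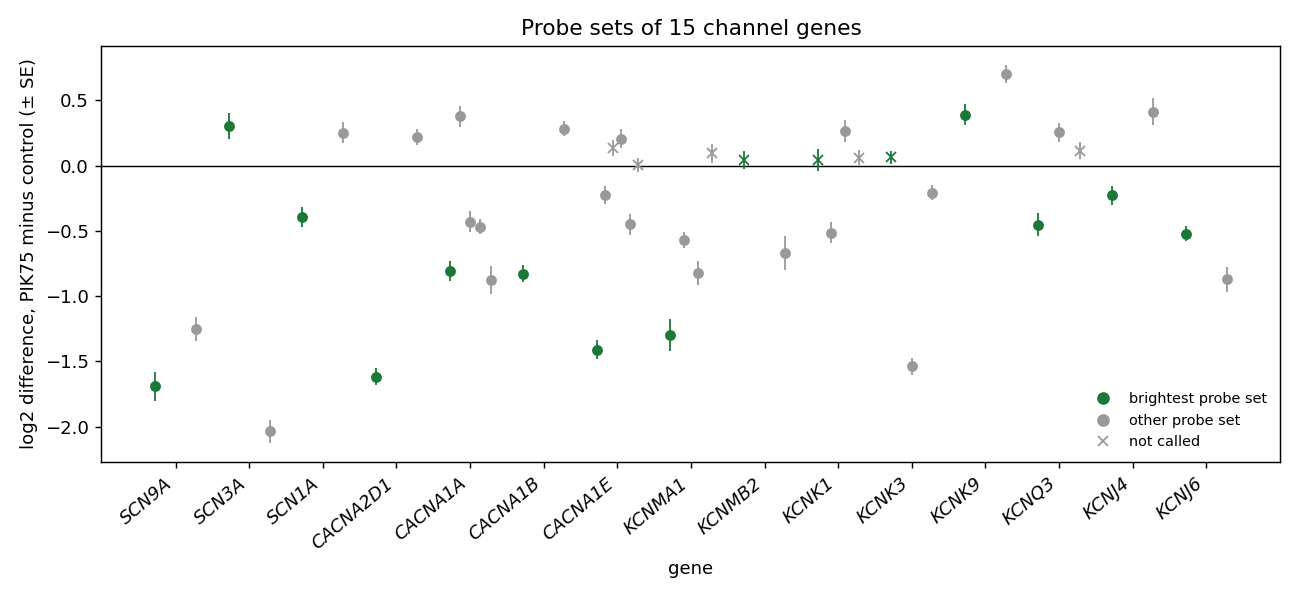
Log2 difference between PIK75 and control (± SE, limma fit over all probe sets, 3 arrays a group) for each probe set of selected channel genes; green marks the brightest probe set, grey the others, ordered from brighter to dimmer, and crosses were not called. SCN9A and KCNJ6 fall in all their probe sets, while SCN3A lies at 0.30 and -2.04 and KCNK3 at 0.06, -1.54 and -0.21.

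With TGX221, no channel gene was called higher (against 0.809% of all genes) and 1, SCN9A, was called lower (0.98%, against 0.399%). SCN9A differed from control by -0.59 (SE 0.11, adjusted p = 0.0395). Its second probe set differed by -0.15 (adjusted p = 0.43). The call was lost in 11 of 21 alternatives, and leaving out any 1 control array ended it. Without control replicate 1, 3 or 5, only 0.00506%, 0% and 0.0556% of all genes were called lower. The groups did not overlap for 26 members (25.5%, against 23.9% of all genes). The gamma subunit gene CACNG6 (-0.34), CACNA1E (-0.28) and KCNMB4 (-0.25) were the next lowest, and none of them passed (adjusted p = 0.1, 0.0886 and 0.0887). PIK75 and TGX221 were compared with the same control arrays, so the 2 sets of differences are not independent.

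Set against each other at their labelled doses, which differ, PIK75 and TGX221 gave 27 channel genes higher with PIK75 (26.5%, against 25.1% of all genes) and 14 lower (13.7%, against 22.3%). At least 1.5-fold lower were 7 (6.86%, against 8.44%) and none was 1.5-fold higher (against 1.73%). The groups did not overlap for 51 members (50%, against 55.1%). Among the brightest probe sets the lowest differences were those of CACNA2D1, -1.64 (SE 0.06), KCNMA1, -1.17 (SE 0.12), CACNA1E, -1.13 (SE 0.07), SCN9A, -1.11 (SE 0.11), and CACNA1A, -0.98 (SE 0.08). For each the PIK75 arrays lay below all TGX221 arrays. With the probe set brightest in the controls, SCN3A differed by -1.95.

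Related channels and partner proteins were a list of 63 genes, of which 56 were measured. Of these, 18 were called higher and 9 lower with PIK75, against 35.2% and 25.2% of all genes. ANK3, which encodes the ankyrin that anchors sodium channels at the axon start, fell by 1.53 (SE 0.07). KCNT2, a sodium-activated potassium channel, fell by 0.99, ANK2 by 0.70 and NEDD4L, a ubiquitin ligase that removes channels from the membrane, by 0.70. Across 22 alternatives the weakest differences were -0.46 for ANK3, -0.69 for KCNT2, -0.18 for ANK2 and -0.58 for NEDD4L. All kept their calls. Of 11 measured regulators of channel gene expression, 3 were called higher and 4 lower, against the same shares of all genes. CAMK2D, a calmodulin-dependent kinase, fell by 0.64, RCOR1, the corepressor of REST, by 0.59, CREB1 by 0.57 and NFATC3 by 0.31. REST itself, added after its value was seen, was called higher at 0.18, a value that turned to -0.17 on the hybridization spikes. With TGX221 none of these list genes was called (limma), against 0.809% of all genes higher and 0.399% lower.

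Marker genes of cell states were counted with PIK75 as well, where 35.2% of all genes were called higher and 25.2% lower. Among olfactory receptor genes 56.1% were called higher. Of 13 neuroendocrine marker genes 10 were lower and 1 higher, with SNAP25, of the secretory fusion machinery, 2.82-fold lower and DDC, an enzyme of amine synthesis, 2.31-fold lower. Of the markers of cells not expected in the line, 3 of 7 leukocyte genes, 6 of 8 fibroblast genes and 2 of 6 endothelial genes were called higher and 1 endothelial gene lower. PTPRC, which defines leukocytes, differed by -0.06 and did not pass. The part of these markers in the channel results was not tested.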

How the data were processed

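The deposited table holds log2 values for 54675 probe sets on 9 arrays. The authors summarised them with RMA, version not given, per the submitters' processing notes, and they were used unchanged. The members and the gene lists were chosen with earlier results of these data known. Symbols came from the platform annotation; 41091 probe sets with exactly 1 symbol gave 19775 genes, each represented by the probe set with the highest mean over all arrays. All genes were fitted with limma 3.58.1 in R 4.3.3 (lmFit and eBayes, 3 group means, no covariate, 6 residual degrees of freedom), with Benjamini-Hochberg adjustment over all genes; probe sets were tested in a second fit over all probe sets. The fit was tested on simulated data. An exact test of 3 arrays against 3 cannot go below p = 0.1 and was not used. Members with values were named by a rule: per comparison the 12 lowest and 8 highest called members with a mean of at least 6 and no overlap, a fixed list of known roles, and genes whose probe sets had opposite calls; CACNA2D3, CACNA2D4, KCNMB4, KCNH8, CACNG3, KCNH6, INSM1, SNAP25, DDC and PTPRC were named after their values were seen. Promoter motifs were also chosen then. The alternatives changed scaling, filter, probe set, samples, spread, replicate block and threshold, and left out each array; choosing probe sets by brightness in the controls and the actin covariate were added after seeing the data. Python 3.11.15 drew the figures.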

Additional observations from a re-analysis of the deposited data

How the results depend on the processing

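The 8 falls of at least 1.5-fold with PIK75 kept their direction and their call in every alternative that tested them, 21 or 22 each; for KCND2 the adjusted p ranged up to 0.0473. The count of lower members stayed between 17 and 18 when any array was left out, and the count of higher members between 34 and 46. The shares of all genes were then 23.5% to 25.2% lower and 28.3% to 35.1% higher. Against TGX221 the ranges were 12 to 15 and 16 to 25 (all genes 20.5% to 22.2% and 18.7% to 24.5%). For TGX221 against control they were 0 to 2 lower and 0 to 1 higher (all genes 0% to 1.6% and 0% to 1.95%). For PIK75 against control the count higher (46) became 14 on the poly-A spikes, 18 with cyclic loess, 12 with dim genes left out (32 members tested), 24 with the actin covariate, 27 at an adjusted p below 0.01 and 0 at 1.5-fold. The shares of all genes called higher were 12.5%, 21.8%, 32%, 22.8%, 22.3% and 1.48%, in that order. On the hybridization spikes 0 were higher and 60 lower (against 1.95% and 66.3%), and at 1.5-fold 8 were lower (against 10.4%). For PIK75 against TGX221 (27 higher, 14 lower) the count higher became 0 on the poly-A spikes, 13 with cyclic loess, 8 with dim genes left out (32 members tested), 10 at an adjusted p below 0.01 and 0 at 1.5-fold. Of all genes 4.96%, 18.3%, 26.3%, 14.2% and 1.73% were higher, in that order. On the hybridization spikes the count higher was 0 with 49 lower (against 3.17% and 60.2%), and at 1.5-fold 7 were lower (against 8.44%). For TGX221 against control (0 higher, 1 lower) there were 2 higher on the poly-A spikes (against 2.35% of all genes) and 4 lower on the hybridization spikes (against 2.79%). With dim genes left out there were 1 higher and 0 lower (against 1.44% and 0.799%). The lower call was lost (0) with the mean of probe sets, the fit of 2 groups, the actin covariate and an adjusted p below 0.01. Of all genes 0.0202%, 0%, 0.187% and 0% were lower, in that order. The replicate block gave 40 higher and 18 lower for PIK75 against control (all genes 33.1% and 24.6%). It gave 17 and 13 for PIK75 against TGX221 (all genes 19% and 20.3%). For TGX221 against control it gave 0 and 0 (all genes 0% and 0%). Same-numbered arrays deviated together at r = -0.13, 0.12 and -0.05 for control and PIK75, 0.08 and -0.02 for control and TGX221, and 0.06 and 0.23 for PIK75 and TGX221. Arrays of different numbers and groups reached from -0.29 to 0.26, and the numbers were not taken as a pairing. Differences whose sign turned are given where they were called in the deposited scaling or in the alternative; others turned that were called in neither. On the hybridization spikes such log2 differences from control with PIK75 were CACNA1C -0.0962, CACNA1D -0.0194, CACNA1G -0.20, CACNA1H -0.33, CACNA1S -0.10, CACNB1 -0.17, CACNG4 -0.15, CACNG8 -0.0098, KCNAB2 -0.24, KCNH4 -0.0026, KCNJ11 -0.26, KCNK1 -0.31, KCNK3 -0.29, KCNMB2 -0.31, KCNN3 -0.0176, KCNQ1 -0.19, KCNQ1OT1 -0.15, KCNQ5 -0.17, SCN2A -0.31, SCN3A -0.0512, SCN3B -0.30, SCN8A -0.13, REST -0.17. Against TGX221 they were CACNA1H -0.23, CACNA1S -0.0279, CACNB1 -0.0581, CACNG1 -0.0066, KCNAB2 -0.13, KCNC2 -0.0377, KCNJ11 -0.21, KCNK3 -0.19, KCNMB2 -0.23, KCNQ1 -0.22, KCNQ1DN -0.21, KCNQ5 -0.0539, SCN2A -0.26, SCN8A -0.0657. With the mean of probe sets they were KCNJ4 0.0919, KCNK3 -0.56, KCNMB2 -0.31, SCN3A -0.87 with PIK75 against control, and KCNK3 -0.42, KCNMB2 -0.26, KCNQ3 0.0456, SCN3A -0.89 against TGX221. With the probe set brightest in the controls, which differed for 5 members, they were KCNMB2 -0.67, SCN3A -2.04 against control and KCNMB2 -0.57, SCN3A -1.95 against TGX221. The counts for PIK75 against control were then 44 higher and 20 lower, against 34.5% and 25.9% of all genes. Apart from the alternatives' own construction, the cause was not tested. Quantile normalization in RMA removes any shift shared by most genes, and dim probe sets carry little signal over background.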
